A study of Mus musculus with 10 samples.

Results

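RasGRP4-null CD117+ splenocytes were set against WT CD117+ splenocytes at the same hours of lipopolysaccharide (LPS) treatment. The comparison took 8 of the 10 arrays of the series, 4 a genotype, chosen by their labels as every array cultured with LPS. The RasGRP4-null arrays came from male mice of a C57BL/6 line that carries a targeted inactivation of the Rasgrp4 gene. The WT arrays came from male C57BL/6 mice, and all mice were 9 to 12 weeks old. The cells were purified from spleens of 5 mice a genotype and plated with LPS at 1 µg/ml for 12, 24, 36 or 48 h, with 1 array per genotype and time. The 2 arrays left out, 1 a genotype, held cells without LPS and are used only for values at 0 h. Neither the labels nor the methods say whether cells of several mice were pooled for an array, or whether each array is a separate mouse. The p-values below therefore measure only the spread of the genotype difference between time points, part of which may be technical. In the limma test used here, a gene's own spread is combined with the spread pooled over all genes tested. The arrays were Affymetrix MoGene-2.0-st arrays, and values are PLIER intensities, a linear scale of brightness.

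RasGRP4 is a guanine nucleotide exchange factor that loads Ras with GTP downstream of diacylglycerol, and in mice it is best known from mast cells. LPS, a component of the bacterial outer membrane, is sensed through Toll-like receptor 4, and in the spleen it makes dendritic cells mature and drives B cells towards antibody-secreting plasma cells. CD117, encoded by Kit, is the receptor for stem cell factor and is carried by mast cells, progenitors and some other leukocytes.

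Rasgrp4 itself could not be compared during LPS. It read 23.7, 23.8, 24.5 and 25.5 at 12, 24, 36 and 48 h in RasGRP4-null cells, against 25.4, 20.7, 23.9 and 23.2 in WT cells. All 8 values lay below background, taken on each array as the level that 95% of its 1089 olfactory receptor probe sets did not exceed, which was between 29.1 and 32.0 on these arrays. At 0 h the probe set read 16.7 in RasGRP4-null cells and 86.4 in WT cells, where background was 31.2 in RasGRP4-null and 38.5 in WT cells, so the gene checks the genotype labels only before LPS. Array medians lay between 24.8 and 26.9, and in each of the 4 time pairs that of the RasGRP4-null array was the higher one. In 3 RasGRP4-null arrays the source name gives a time 12 h earlier than the title, and the titles were used here. The design text of the series names 0, 6, 12, 24 and 48 h, and not 36 h. The methods describe the cells as rich in dendritic cells, whose markers were present only in part during LPS. The pan-dendritic cell gene Itgax read 38.2, 42.5, 42.5 and 56.2 in RasGRP4-null cells and 31.1, 19.5, 31.0 and 38.0 in WT cells, close to background, against 485 in RasGRP4-null and 522 in WT cells at 0 h. Of 16 conventional dendritic cell markers, 5 were below background on all 8 arrays and 8 could be tested, and none of these 8 passed. The summed intensity of all 16 ran from 2590 to 2916 in RasGRP4-null cells and from 2500 to 2978 in WT cells. In such bulk samples, fewer cells of a type and less RNA per cell cannot be told apart.

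Of 10436 genes tested with limma, 24 differed between RasGRP4-null and WT cells at a Benjamini-Hochberg adjusted p under 0.05, which is 0.23% of the genes tested. Of these, 20 were higher in RasGRP4-null cells (0.192%) and 4 were lower (0.0383%). The genes higher in RasGRP4-null cells included the immunoglobulin genes Ighg3 and Igkv19-93, the plasma cell regulator Prdm1 and the cytokine Csf2. Also among them were the chemokines Cx3cl1 and Xcl1, and Tmem176b and Cxcr6, known from innate lymphoid cells. Those lower in RasGRP4-null cells were Pydc3, Snord72, Saa3 and Ide. The called differences were at least 0.58 on the scale of log2(PLIER + 16), with standard errors (SE) between 0.09 and 0.18. All 24 had the same sign at 4 of 4 time points, as had 17.6% of all genes tested. In 19 of the 24 the 4 RasGRP4-null values did not overlap the 4 WT values, as for 3.11% of all genes. Across all genes the median difference was 0.01 and the signs were nearly even, with 5448 positive and 4988 negative. At an unadjusted p under 0.05, 6.94% of genes were higher and 2.75% lower in RasGRP4-null cells.

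The number of calls rested on the time pairing and on single time points. With time point left out of the model, or with the 24 h arrays left out, 1 gene passed, Pydc3. Leaving out 12 h gave 39 genes, 36 h gave 16 and 48 h gave 10. With the arrays placed at the times of their source names, Pydc3 and Cfl2 passed, 2 genes in all. Every one of the 24 kept its direction under each of these settings. Leaving out a time point could not turn a sign, as each gene had the same sign at 4 of 4 time points. Taking time point out of the model did not change the fitted difference. Of these settings only the source-name times could have turned a direction. With each array centred on its median, 16 genes were higher and 7 lower.

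**Figure D1:**
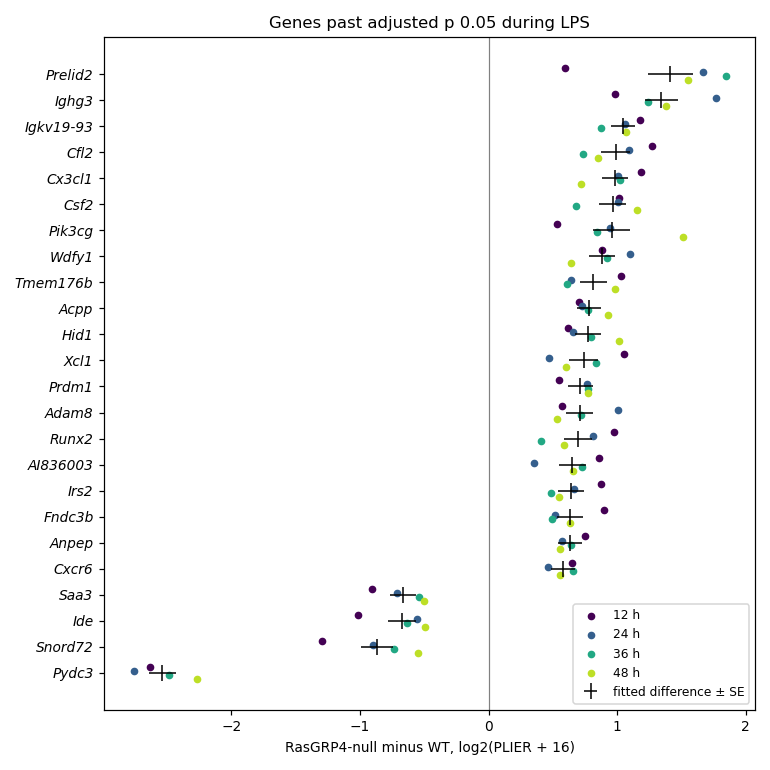
Difference between RasGRP4-null and WT cells for the 24 genes with adjusted p under 0.05, on the scale of log2(PLIER + 16), with 1 point for each of 12, 24, 36 and 48 h. Black marks show the fitted difference with its SE, and all 4 points of a gene lie on the same side of 0 in all 24 genes.

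Pydc3 had the largest difference among the called genes. The gene belongs to the PYHIN family, interferon-inducible proteins with a pyrin domain. Its intensity was 11.1, 12.0, 8.34 and 4.83 at 12, 24, 36 and 48 h in RasGRP4-null cells, against 152, 174, 121 and 84.2 in WT cells. All 4 RasGRP4-null values were below background and all 4 WT values above it. The mean was 9.07 ± 3.23 in RasGRP4-null cells and 133 ± 38.9 in WT cells (SD, n = 4 each). The log2 difference was -2.54 (SE 0.11, limma adjusted p = 2.65e-06), which is at least 3.10-fold lower when each RasGRP4-null array is set to its background before 16 is added, a bound used likewise below. At 0 h it read 4.87 in RasGRP4-null cells and 26.2 in WT cells, both below background, and it was the only one of the 24 whose difference during LPS was called against that at 0 h (-1.52, SE 0.24, limma adjusted p = 0.041). Of the 6 other PYHIN genes tested, a list drawn up after this value was seen, none passed, and their differences lay between -0.18 and 0.28.

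Immunoglobulin genes gave 2 of the called genes. Ighg3, the constant region of IgG3, read 1067, 1795, 1964 and 2295 in RasGRP4-null cells, against 532, 515, 821 and 871 in WT cells. Every RasGRP4-null array was above every WT array, and the log2 difference was 1.34 (SE 0.13, limma adjusted p = 0.0025). The difference was present before LPS, with 2131 in RasGRP4-null and 434 in WT cells at 0 h. Igkv19-93, a kappa light chain variable segment, read 2713, 2061, 2340 and 2557 in RasGRP4-null cells and 1190, 979, 1267 and 1208 in WT cells, a log2 difference of 1.05 (SE 0.09, limma adjusted p = 0.0025). A second probe set of this gene gave only 0.40. Variable segments resemble one another in sequence, so that probe sets can share targets. All 13 variable segments tested had a positive difference, with 1 called and a median of 0.36. At an unadjusted p under 0.05, 8 were higher (61.5%, against 6.94% of all genes).

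Heavy chain probe sets with several gene symbols were not in the fit of 1 probe set a gene, and were read from a fit of all 15339 probe sets that passed the filter, of which 28 were called (0.183%). Sets annotated to Ighg2b, Ighg2c and Igha were higher in RasGRP4-null cells, as was Ighg3. The sets called after Ighg1, Ighg2b and Ighg2c also carry the symbol Ighm. The Ighg2b set read 979, 1500, 1843 and 2095 in RasGRP4-null cells, against 637, 587, 955 and 1052 in WT cells (log2 difference 0.96, limma adjusted p = 0.034). The Ighg2c set read 782, 977, 1021 and 1050 in RasGRP4-null cells, against 443, 431, 565 and 636 in WT cells (0.87, limma adjusted p = 0.023). The Igha set read 1466, 1091, 1239 and 1503 in RasGRP4-null cells, against 714, 460, 772 and 756 in WT cells (0.97, limma adjusted p = 0.021). In contrast to these, the set annotated to Ighg1 was lower in RasGRP4-null cells, at 168, 215, 324 and 381, against 733, 606, 897 and 924 in WT cells. Its 2 groups did not overlap, and the log2 difference was -1.53 (SE 0.14, limma adjusted p = 0.0056). At 0 h the Ighg1 set read 423 in RasGRP4-null and 418 in WT cells. The Ighg2b and Ighg2c differences were present at 0 h, where the Ighg2b set read 1545 in RasGRP4-null and 491 in WT cells. The Ighg2c set read 852 in RasGRP4-null and 287 in WT cells, and the Igha set 4380 in RasGRP4-null and 3464 in WT cells. Sets annotated to Ighm alone differed among themselves. One was called, with 183, 419, 587 and 724 in RasGRP4-null cells against 91.6, 59.3, 122 and 157 in WT cells (1.91, limma adjusted p = 0.023), and read 373 in RasGRP4-null and 23.7 in WT cells at 0 h, the WT value below background. Another, not called, differed by -0.90 (limma adjusted p = 0.14). The remaining sets of Ighm alone, none called, differed by 0.18 to 0.63. The brightest of them was the one at 0.18 (limma adjusted p = 0.67). The difference during LPS was not tested against that at 0 h for the probe sets of this paragraph.

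**Figure D2:**
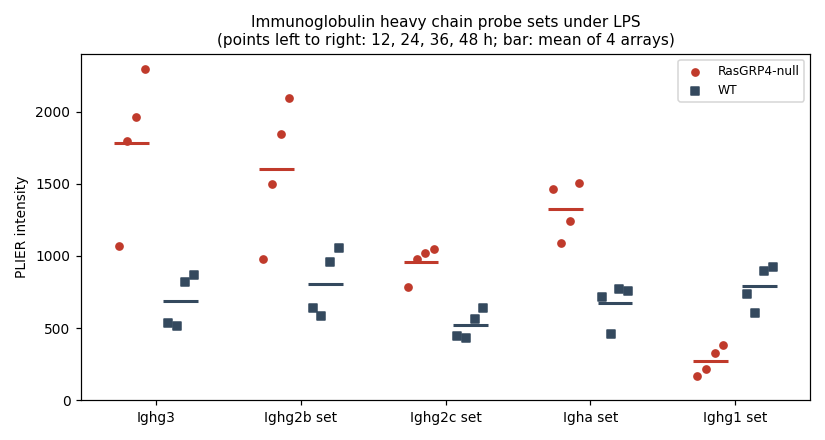
PLIER intensity of 5 immunoglobulin heavy chain probe sets in the 4 RasGRP4-null arrays (red circles) and the 4 WT arrays (dark squares) under LPS, with points of a group running from 12 to 48 h and bars for the mean. The sets for Ighg3, Ighg2b, Ighg2c and Igha lie higher in RasGRP4-null cells, and the Ighg1 set lies lower.

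Prdm1 encodes Blimp-1, the factor that turns activated B cells into antibody-secreting cells. It read 350, 460, 561 and 581 in RasGRP4-null cells, against 234, 264, 321 and 334 in WT cells. The groups did not overlap, and the log2 difference was 0.71 (SE 0.09, limma adjusted p = 0.014). In the list of plasma cell genes, 11 of 11 tested members were positive and 1 was called. At an unadjusted p under 0.05, 7 were higher (63.6%, against 6.94% of all genes). The median was 0.45 against 0.01 over all genes. Xbp1, the factor that expands the secretory apparatus, read 1030, 1209, 1898 and 1742 in RasGRP4-null cells and 731, 927, 924 and 923 in WT cells, and narrowly missed the threshold (log2 difference 0.70, limma adjusted p = 0.058). Igj, the joining chain of IgM and IgA, differed by 0.85 (limma adjusted p = 0.095). The median of the plasma cell list was 0.05, 0.37, 0.60 and 0.77 from 12 to 48 h, and 0.49 in the untreated pair. The list median was thus higher at each later time under LPS, with the 0 h value lying between those of 24 and 36 h.

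Genes of the unfolded protein response, which secretory cells use to fold more protein, gave like values. All 15 tested members were positive and none was called. At an unadjusted p under 0.05, 7 were higher (46.7%, against 6.94% of all genes), and the median of the list was 0.27. By time its median was -0.12, 0.17, 0.44 and 0.47, and 0.25 in the untreated pair. Syvn1, a ligase that removes misfolded protein, differed by 0.39 (limma adjusted p = 0.18), and Edem1, which marks such proteins for removal, by 0.31 (limma adjusted p = 0.21). Xbp1 stands in both lists. B cell identity genes did not share the positive sign. Of 12 tested, 10 were negative and none was called. At an unadjusted p under 0.05, 4 were lower (33.3%, against 2.75% of all genes). The median was -0.21, with medians by time of -0.52, 0.03, -0.09 and -0.18. Spib, a B cell transcription factor, read 353, 585, 767 and 621 in RasGRP4-null cells and 435, 633, 1004 and 930 in WT cells (-0.34, limma adjusted p = 0.23).

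**Figure D3:**
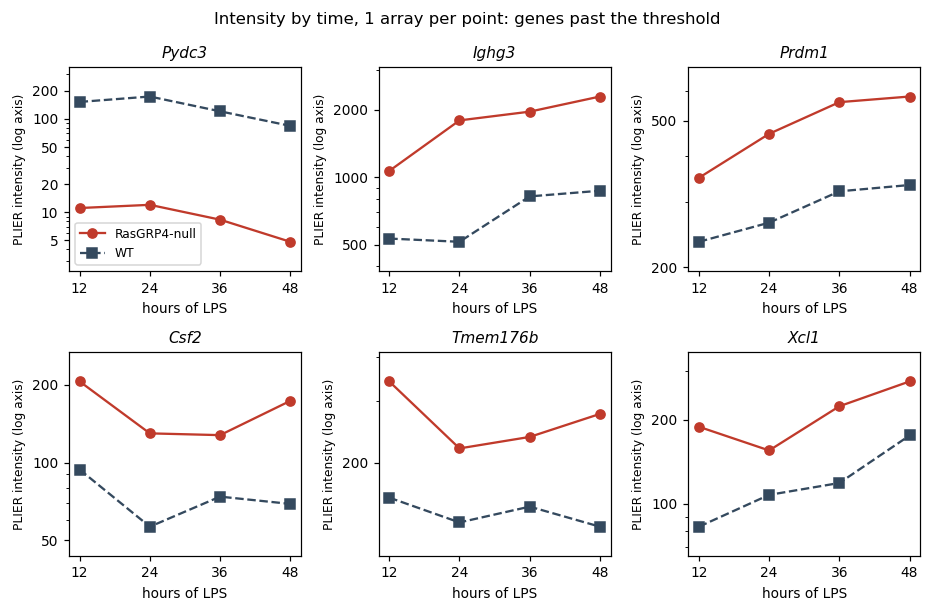
PLIER intensity on a log axis against hours of LPS for Pydc3, Ighg3, Prdm1, Csf2, Tmem176b and Xcl1, with RasGRP4-null arrays as red circles and WT arrays as dark squares. The curves of the genotypes do not cross in any of the 6 genes.

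Csf2 encodes GM-CSF, a growth factor of granulocytes, macrophages and dendritic cells. It read 206, 130, 128 and 173 in RasGRP4-null cells and 93.9, 56.4, 73.8 and 69.1 in WT cells. The lowest RasGRP4-null value exceeded the highest WT value, and the log2 difference was 0.96 (SE 0.10, limma adjusted p = 0.0058). At 0 h it read below background in both genotypes, 9.26 in RasGRP4-null and 6.18 in WT cells. Of 13 LPS-induced cytokines tested, Csf2 was the 1 called. Il1b, an inflammasome-dependent cytokine, differed by 0.51 (limma adjusted p = 0.064) and Il10, an anti-inflammatory cytokine, by 0.51 (limma adjusted p = 0.25). Without the 12 h arrays Il10 passed, at 0.74 (limma adjusted p = 0.015). The median of the list was 0.08, and by time it was 0.55, 0.25, -0.06 and -0.12 from 12 to 48 h.

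Cx3cl1, or fractalkine, is a chemokine that is tethered to the cell surface and binds CX3CR1. Its intensities were 90.3, 61.2, 82.2 and 91.8 in RasGRP4-null cells, against 30.8, 22.5, 32.3 and 49.4 in WT cells, of which 3 were above background. The groups did not overlap, and the log2 difference was 0.98 (SE 0.10, limma adjusted p = 0.0054). Xcl1, a lymphotactin made by NK and T cells, read 189, 155, 224 and 275 in RasGRP4-null cells and 82.8, 108, 119 and 176 in WT cells. The highest WT array, at 48 h, lay above the lowest RasGRP4-null array, at 24 h, and the log2 difference was 0.74 (SE 0.11, limma adjusted p = 0.034). In the chemokine list, which does not hold Cx3cl1, 9 genes were tested, of which Xcl1 was called. At an unadjusted p under 0.05, 4 were higher (44.4%, against 6.94% of all genes). Ccl22, which mature dendritic cells secrete, read 1503, 574, 572 and 478 in RasGRP4-null cells and 394, 392, 402 and 378 in WT cells, a difference of 0.81 that did not pass (limma adjusted p = 0.16). Its difference was largest at 12 h.

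Tmem176b and Cxcr6 stood in the list of interleukin-22 and group 3 innate lymphoid cell (ILC3) genes, in which 2 of 8 tested were called. At an unadjusted p under 0.05, 6 were higher (75.0%, against 6.94% of all genes). Tmem176b, a membrane protein of dendritic cells and ILC3, read 341, 220, 237 and 276 in RasGRP4-null cells, against 159, 135, 150 and 132 in WT cells (log2 difference 0.81, SE 0.11, limma adjusted p = 0.014). The groups did not overlap. Cxcr6, the receptor of CXCL16, read 36.6, 35.8, 57.7 and 74.6 in RasGRP4-null cells, against 17.6, 21.6, 30.7 and 45.6 in WT cells, of which 2 were above background (0.58, SE 0.09, limma adjusted p = 0.041). All 8 members were positive, with a median of 0.48 and medians by time between 0.44 and 0.54, against 0.09 at 0 h. Il23r, the receptor chain for interleukin 23, was just outside the threshold at 0.59 (limma adjusted p = 0.055), and passed without the 12 h arrays at 0.67 (limma adjusted p = 0.026). Il22 itself read 106, 60.5, 121 and 201 in RasGRP4-null cells and 83.9, 58.7, 75.4 and 101 in WT cells, higher in each pair but not past the threshold (0.45, limma adjusted p = 0.22).

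Several called genes belong to signalling and the cytoskeleton. Pik3cg, the catalytic subunit of phosphoinositide 3-kinase gamma, read 203, 266, 515 and 711 in RasGRP4-null cells, against 136, 131, 280 and 239 in WT cells (log2 difference 0.96, SE 0.14, limma adjusted p = 0.032). Cfl2, an actin-severing cofilin, read 235, 217, 238 and 288 in RasGRP4-null cells, against 87.8, 93.0, 137 and 153 in WT cells (0.99, SE 0.11, limma adjusted p = 0.0066). The Cfl2 groups did not overlap, whereas those of Pik3cg did. Runx2, a transcription factor that is also used by plasmacytoid dendritic cells, read 187, 125, 145 and 157 in RasGRP4-null cells, against 87.3, 64.2, 105 and 99.2 in WT cells (0.70, SE 0.11, limma adjusted p = 0.042). The other called genes that were higher and above background on all arrays were Adam8, a membrane metalloprotease (0.71), Anpep, aminopeptidase N (0.63), Irs2, an insulin receptor adaptor (0.64), Fndc3b (0.63), AI836003 (0.65) and Wdfy1. Hid1 was higher in RasGRP4-null cells by 0.77, with WT above background on 3 arrays.

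Acpp and Prelid2 were below background on all 4 WT arrays. Prelid2, a protein with a PRELI domain, read 38.8, 71.7, 88.2 and 84.4 in RasGRP4-null cells, against 20.3, 11.6, 13.0 and 18.3 in WT cells, at least 1.83-fold higher (limma adjusted p = 0.012). Acpp, an acid phosphatase, read 47.2, 38.6, 63.0 and 68.2 in RasGRP4-null cells, against 22.8, 17.0, 30.3 and 28.3 in WT cells, at least 1.50-fold higher (limma adjusted p = 0.0085). Neither pair of groups overlapped.

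Wdfy1 and Ide, on a list of genes known to differ between C57BL/6 substrains that was drawn up after the calls were seen, differed in opposite directions. Wdfy1, an endosomal adaptor protein, read 129, 167, 197 and 157 in RasGRP4-null cells, against 62.8, 69.4, 96.4 and 95.1 in WT cells (log2 difference 0.88, SE 0.10, limma adjusted p = 0.0076). Ide, the insulin-degrading enzyme, read 492, 670, 593 and 663 in RasGRP4-null cells, against 1011, 994, 929 and 940 in WT cells (-0.68, SE 0.11, limma adjusted p = 0.042). Nnt, a mitochondrial transhydrogenase, read 83.7, 92.5, 98.2 and 97.8 in RasGRP4-null cells, against 62.8, 54.5, 57.5 and 67.0 in WT cells, without overlap, and missed the threshold (0.51, limma adjusted p = 0.063). The part of strain background in these differences was not tested. Around the targeted gene itself, none of the 108 genes tested within 5 Mb of Rasgrp4 was called, and their median was 0.03.

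Of the genes lower in RasGRP4-null cells, Saa3, an acute-phase apolipoprotein, read 73.0, 89.2, 124 and 144 there, against 151, 156, 188 and 211 in WT cells (log2 difference -0.67, SE 0.10, limma adjusted p = 0.034). No RasGRP4-null array reached the lowest WT array. The neutrophil list had 2 tested members, and 10 of its genes were below background on all 8 arrays. Lcn2, a siderophore-binding protein of neutrophils that other cells also make, read 286, 267, 292 and 411 in RasGRP4-null cells and 669, 247, 516 and 690 in WT cells (-0.65, limma adjusted p = 0.15).

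Snord72, a small nucleolar RNA (snoRNA), a class that guides the modification of ribosomal RNA, read 216, 308, 269 and 239 in RasGRP4-null cells, against 552, 586, 459 and 356 in WT cells (log2 difference -0.87, SE 0.12, limma adjusted p = 0.026). The groups did not overlap. Of 49 snoRNAs tested, 41 were negative and 1 was called. At an unadjusted p under 0.05, 23 were lower (46.9%, against 2.75% of all genes) and 1 was higher (2.04%, against 6.94%). The median was -0.24, and by time -0.15, -0.18, -0.27 and -0.34 from 12 to 48 h, against 0.05 at 0 h. Snora15 (-0.61, limma adjusted p = 0.0504), Snord69 (-0.63, limma adjusted p = 0.055) and Snord11 (-0.71, limma adjusted p = 0.058) lay just outside the threshold. Several snoRNAs lie in introns of host genes, and whether their hosts differed was not tested. Among 20 mitochondrial tRNAs, another class of small RNA chosen after the values were seen, none passed and the median was 0.20. At an unadjusted p under 0.05, 9 were higher (45.0%, against 6.94% of all genes) and 1 was lower (5.0%, against 2.75%). The 5S ribosomal RNA repeats, likewise listed after the values were seen, had 13 tested members, none called, and a median of -0.25. Here 4 were lower at an unadjusted p under 0.05 (30.8%, against 2.75% of all genes) and 1 was higher (7.69%, against 6.94%).

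**Figure D4:**
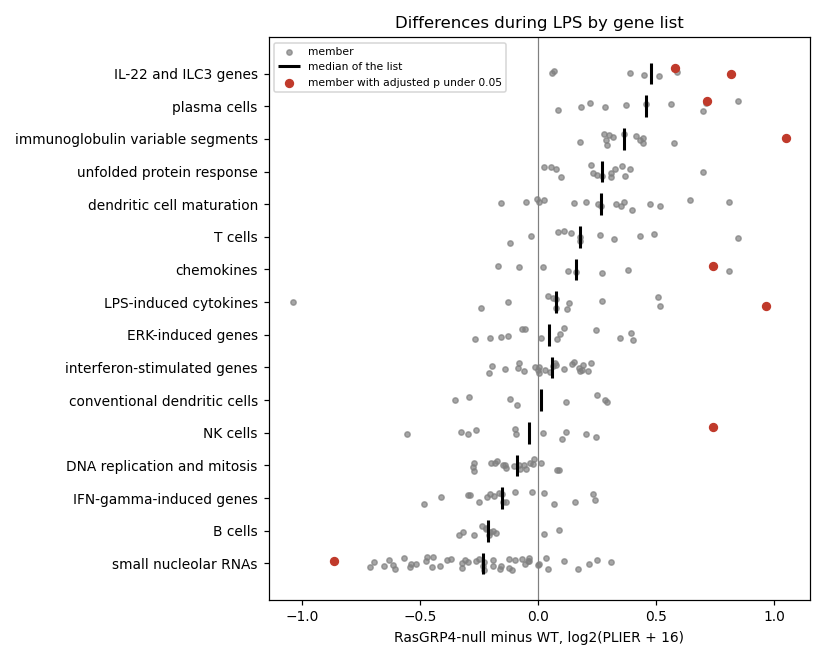
Fitted differences between RasGRP4-null and WT cells during LPS for the tested members of 16 gene lists, on the scale of log2(PLIER + 16), with a black bar for the median of each list and members with adjusted p under 0.05 in red. Medians run from 0.48 for interleukin-22 and ILC3 genes to -0.24 for snoRNAs.

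To show what lies upstream of the called immune genes, the 250 bases before the annotated start were read from RefSeq (GRCm38.p6), and 16 of the 24 called genes matched an entry. Motif letters were searched on both strands, and a match is only a description of the letters. Shown are 3 promoters, those of the genes behind the cytokine, plasma cell and acute-phase results. In the Prdm1 promoter (chr10:44458749-44458998, minus strand) capitals mark an AP-1 motif, TGANTCA, and NF-kB motifs, GGGNNNNNCC, 2 of which overlap. In the Saa3 promoter (chr7:46715677-46715926, minus strand) they mark an interferon regulatory factor (IRF) motif, GAAANNGAAA. The Csf2 promoter (chr11:54249900-54250149, minus strand) held none of the letters searched.
Prdm1: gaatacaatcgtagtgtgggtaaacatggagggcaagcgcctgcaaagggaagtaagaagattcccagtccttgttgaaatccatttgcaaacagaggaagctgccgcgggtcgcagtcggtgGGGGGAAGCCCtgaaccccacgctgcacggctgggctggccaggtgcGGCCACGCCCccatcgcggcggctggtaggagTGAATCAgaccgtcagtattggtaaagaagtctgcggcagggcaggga
Saa3: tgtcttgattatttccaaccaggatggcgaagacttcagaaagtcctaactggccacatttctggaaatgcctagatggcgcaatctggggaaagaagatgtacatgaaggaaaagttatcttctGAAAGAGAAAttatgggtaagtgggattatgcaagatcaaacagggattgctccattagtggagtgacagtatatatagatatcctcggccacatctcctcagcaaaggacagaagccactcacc
Csf2: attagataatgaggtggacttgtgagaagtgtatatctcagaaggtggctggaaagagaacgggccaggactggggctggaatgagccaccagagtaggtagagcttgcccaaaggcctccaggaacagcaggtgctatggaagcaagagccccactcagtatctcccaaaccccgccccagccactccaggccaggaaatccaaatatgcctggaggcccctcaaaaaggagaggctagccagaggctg
The 16 called genes matched have 19 annotated promoters. The NF-kB letters stood in 8 of the 19 (42.1%), against 45.8% of all 32851 promoters of this length. The AP-1 letters stood in 1 of the 19 (6.75% of all promoters), the IRF letters in 1 (2.98%) and the interferon gamma-activated site TTCNNNGAA in 0 (7.02%). ACGTG stood in 3 (16.6%) and TATAAA in 1, that of Cx3cl1 (12.4%).

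The study asked how RasGRP4 bears on the interferon gamma made in response to LPS, and 14 of the 27 genes it names could be tested here. None of the 14 was called by limma, 7 had an unadjusted p under 0.05, 6 of these higher and 1 lower, and none was past the threshold in the methods' t-test after adjustment. The 1 lower gene was Ifng, the gene for interferon gamma, with 254, 127, 82.3 and 72.0 in RasGRP4-null cells and 548, 261, 101 and 69.5 in WT cells. The RasGRP4-null value was the lower one at 12, 24 and 36 h and the values nearly met at 48 h (log2 difference -0.55, SE 0.17, limma adjusted p = 0.24). Genes that interferon gamma induces were mostly negative, 14 of 19, with none called and a median of -0.15. From 12 to 48 h the list median was -0.01, -0.03, -0.27 and -0.16, so it was lower at 36 and 48 h, where the Ifng values were closer. At an unadjusted p under 0.05, 5 were lower (26.3%, against 2.75% of all genes) and 1 was higher (5.26%, against 6.94%). Iigp1, an immunity-related GTPase, differed by -0.41 (limma adjusted p = 0.11), and Cxcl10, an interferon-induced chemokine, by -0.49 (limma adjusted p = 0.40). The wider list of 24 interferon-stimulated genes had a median of 0.06 with none called and none at an unadjusted p under 0.05. Tbx21, the transcription factor T-bet of NK and T cells, differed by -0.30 (limma adjusted p = 0.36). In the NK cell list 6 of 12 tested were positive, 6 were negative and the median was -0.04. Its 1 called member was Xcl1, higher in RasGRP4-null cells. At an unadjusted p under 0.05, 2 were lower (16.7%, against 2.75% of all genes) and 1 was higher (8.33%, against 6.94%).

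Tnfsf4, which encodes OX40 ligand, a costimulator of T cells, read 201, 122, 117 and 147 in RasGRP4-null cells and 125, 86.0, 84.6 and 105 in WT cells, higher in each of the 4 pairs (log2 difference 0.47, SE 0.09, limma adjusted p = 0.063). It belongs to the dendritic cell maturation list, in which none of 17 tested was called. At an unadjusted p under 0.05, 8 were higher (47.1%, against 6.94% of all genes). The median of that list was 0.26, and by time 0.67, 0.23, 0.05 and 0.17, so that the 12 h pair stood apart. Fscn1, an actin-bundling protein of mature dendritic cells, read 1788, 1223, 976 and 848 in RasGRP4-null cells and 1042, 882, 731 and 631 in WT cells (0.51, limma adjusted p = 0.063). Kit, which encodes the CD117 used for the purification, read 334, 183, 237 and 271 in RasGRP4-null cells and 179, 133, 184 and 257 in WT cells (0.42, limma adjusted p = 0.22).

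For the Ras pathway only mRNA was read, and the activity of its proteins was not measured. None of the 12 Ras, Raf, MEK and ERK genes tested was called or had an unadjusted p under 0.05, and their median was -0.01. Rasgrp3, the family member of B cells, read 1032, 1049, 893 and 691 in RasGRP4-null cells and 969, 901, 656 and 535 in WT cells (log2 difference 0.27, limma adjusted p = 0.35). Rasgrp1, the family member of T cells, differed by -0.12 (limma adjusted p = 0.83). Of 14 ERK-induced genes none was called and 3 were higher at an unadjusted p under 0.05 (21.4%, against 6.94% of all genes). Among these 3 were Dusp5, a phosphatase of nuclear ERK (0.40, limma adjusted p = 0.20), and Spred1, an inhibitor of Ras signalling (0.39, limma adjusted p = 0.23). The median of the ERK-induced list was 0.05, and by time 0.25, 0.29, -0.02 and -0.20 from 12 to 48 h. Rasal1, a GTPase-activating protein of Ras, differed by 0.45 (limma adjusted p = 0.071).

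Lists of other cell types had no called member among T cell, B cell and macrophage genes. In the T cell list 10 of 12 were positive, none was called and the median was 0.18. At an unadjusted p under 0.05, 5 were higher (41.7%, against 6.94% of all genes). Of 7 T cell receptor variable segments tested, none was called or had an unadjusted p under 0.05, with 4 positive, 3 negative and a median of 0.05. Over the 14 T cell list genes with a probe set naming a single gene, tested or not, the summed intensity ran from 1487 to 1714 in RasGRP4-null cells. In WT cells it ran from 977 to 1443. Cd4 read 102, 186, 268 and 328 in RasGRP4-null cells and 94.4, 70.3, 125 and 152 in WT cells (log2 difference 0.84, limma adjusted p = 0.063), and passed without the 12 h arrays at 1.09 (limma adjusted p = 0.0030). The summed B cell list ran from 6200 to 11635 in RasGRP4-null cells and from 8873 to 12901 in WT cells. For plasma cell genes the sums were 6576 to 11430 in RasGRP4-null cells and 5800 to 7106 in WT cells. Macrophage markers gave 9 tested genes, 2 of them higher at an unadjusted p under 0.05 (22.2%, against 6.94% of all genes). Csf1r, C1qc and Mrc1 were among 6 markers below background on all 8 arrays. Cd14, the LPS co-receptor of monocytes, differed by 0.54 (limma adjusted p = 0.063). The part of cell composition in the called differences was not tested.

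The differences were not alike at the 4 times. At 12 h 128 genes differed by over 1 on the log2 scale, against 38, 36 and 35 genes at 24, 36 and 48 h. Over all genes, the difference at 36 h correlated with that at 48 h (Pearson's r = 0.53) and that at 12 h with that at 24 h (0.29), while 12 h against 36 h gave 0.05 and against 48 h also 0.05. These values are over 10436 genes, which are not independent, and each rests on 4 arrays. Genes of DNA replication and mitosis had a median of -0.59 at 12 h, then -0.01, 0.11 and 0.13.

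A linear change of the difference with hours of LPS was called in none of the genes by limma (smallest adjusted p = 0.071), with 1370 genes at an unadjusted p under 0.05 (13.1%). The smallest p belonged to Mcpt1, a mast cell protease, with 110, 36.5, 42.5 and 57.5 in RasGRP4-null cells and 26.6, 21.5, 45.3 and 89.9 in WT cells, a difference that changed by -0.06 an hour (limma adjusted p = 0.071). Tnfsf15, a cytokine of the tumour necrosis factor family, gave the same slope of -0.06 (limma adjusted p = 0.084). Fkbp11, a prolyl isomerase of secretory cells, read 25.8, 63.4, 162 and 167 in RasGRP4-null cells and 28.6, 50.3, 61.7 and 50.2 in WT cells, a slope of 0.05 an hour (limma adjusted p = 0.084). Leaving out 1 time point gave between 24 and 600 genes with a called slope, lowest without 36 h and highest without 24 h, and 200 without 12 h and 109 without 48 h.

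A group of genes came up late in WT cells and later or less in RasGRP4-null cells, and 4 were picked out after their values were seen. Il23a, the interleukin 23 subunit p19, read 31.2, 20.1, 21.8 and 138 in RasGRP4-null cells and 17.8, 16.1, 294 and 507 in WT cells (log2 difference -1.04, SE 0.46, limma adjusted p = 0.50). Ermn read 5.02, 5.03, 13.4 and 77.2 in RasGRP4-null cells and 6.86, 5.10, 203 and 408 in WT cells (-1.30, SE 0.41, limma adjusted p = 0.25). Fam171b read 17.0, 13.6, 15.5 and 75.2 in RasGRP4-null cells and 15.7, 15.2, 125 and 310 in WT cells. In these 3 genes the RasGRP4-null values at 12, 24 and 36 h and the WT values at 12 and 24 h were below background, so that the differences at 36 h are only measured values. Ebi3, a subunit of interleukins 27 and 35, was above background throughout and differed by -1.14 at 36 h and -0.73 at 48 h. These are the time points at which the source names of the RasGRP4-null arrays give 24 and 36 h in place of 36 and 48 h. Read by source name, the RasGRP4-null array at 36 h had 138 of Il23a against 294 in WT cells, still lower, while the fitted Ebi3 difference was then 0.24 in place of -0.24.

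**Figure D5:**
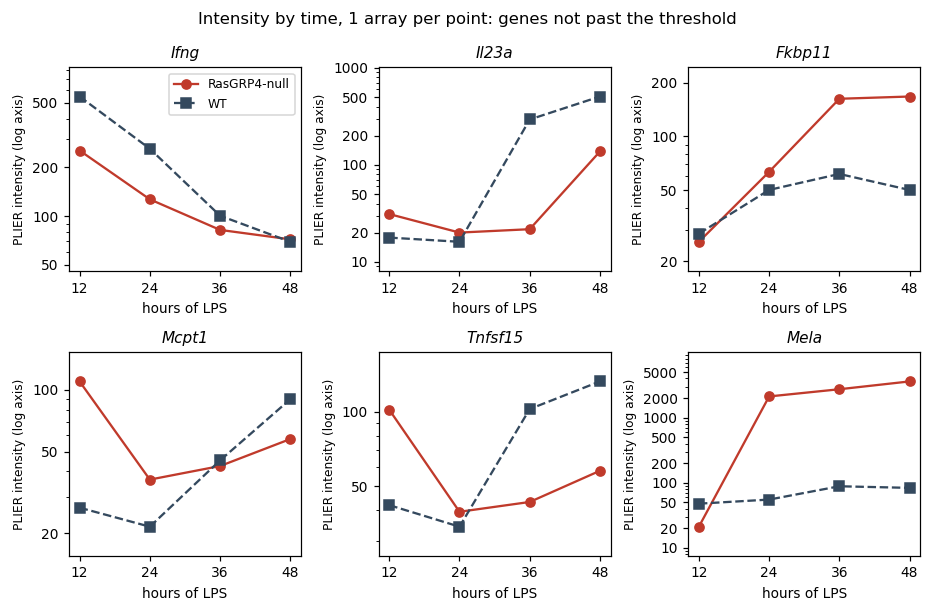
PLIER intensity on a log axis against hours of LPS for Ifng, Il23a, Fkbp11, Mcpt1, Tnfsf15 and Mela, with RasGRP4-null arrays as red circles and WT arrays as dark squares. None of the 6 passed the threshold, and in each the distance between the genotypes differs between time points.

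Mela, a melanoma antigen gene of endogenous retroviral origin, was also picked out after its values were seen. It read 21.2, 2114, 2726 and 3594 in RasGRP4-null cells, against 47.9, 55.3, 88.5 and 83.6 in WT cells. At 0 h it read 3825 in RasGRP4-null and 44.2 in WT cells, so that 4 of the 5 RasGRP4-null arrays were high and the one at 12 h was not. Over the 4 pairs the log2 difference was 3.50 (SE 0.78, limma adjusted p = 0.094), and without the 12 h arrays it was 4.93 (limma adjusted p = 5e-08). Retroviral sequences occur in many copies, so that signal of related copies on this probe set cannot be told apart.

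At 0 h, with 1 array a genotype, 6 of the 24 called genes, Pydc3, Cx3cl1, Csf2, Acpp, Saa3 and Cxcr6, were below background in both genotypes, so that their sign there is not read. Of the other 18, 15 had the sign they had during LPS, where 51.4% of all genes tested had the same sign. Pik3cg, Adam8 and Irs2 had the other sign. The difference during LPS was called against that at 0 h in 21 of 11178 genes (0.188%), of which Pydc3 was the 1 shared with the 24. With 1 array a genotype at 0 h, that test takes its spread from the LPS arrays and assumes that the untreated arrays vary likewise. The Igkv19-93 difference was 1.01 at 0 h and 1.05 during LPS, and that of Ighg3 was 2.26 at 0 h and 1.34 during LPS.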

How the data were processed

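Per the labels and methods, RNA of CD117+ splenocytes was hybridized to Affymetrix MoGene-2.0-st arrays, and the authors made the deposited PLIER intensity values with Affymetrix Expression Console. A further deposited table scales these intensities by 1 factor per array on Gapdh (1.00 to 1.31 on the LPS arrays), and the value table of the series holds the same, rounded. Of the per-sample columns, 10 that repeat others were not used. Genome build and annotation release are not given in the sources used here. The arrays list 41345 probe sets: 26660 name a single gene, 3066 name several and 11619 name none. The brightest probe set of each symbol was kept, and a gene entered the test if 2 or more of the 8 arrays reached a PLIER value of 50.

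limma 3.58.1 (R 4.3.3) was fitted to log2(PLIER + 16) with terms for time point and genotype, leaving 3 residual degrees of freedom (two-sided), adjusted by Benjamini-Hochberg at 0.05. The variance prior, pooled over all genes tested, had 7.2 degrees of freedom and so weighed more than a gene's own 3. The slope of the difference per hour (2 residual degrees of freedom) and the difference against 0 h (all 10 arrays, 3 residual degrees of freedom) were fitted likewise. The fits were tested on simulated data. The number of arrays limits the precision. Time point pairs the arrays by design: deviations from the genotype means correlated at 0.66, 0.46, 0.53 and 0.67 between same-time arrays at 12, 24, 36 and 48 h, while that of the RasGRP4-null 48 h with the WT 36 h array was 0.66. Alternatives changed normalization, pseudocount, filter, probe sets, variance prior, pairing, samples and test.

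The members and gene lists were chosen with earlier results of these data known. Named were the 10 largest called differences each way (filled, where fewer passed, by the smallest p with 1 sign at all time points), up to 4 members of each list by p, the genes the study names, and the top genes of the slope and of the 0 h comparison (5 each way among called genes, or 3 by p). Adam8, Anpep, Irs2, Hid1, Fndc3b and AI836003 are named outside this rule, to complete the called genes, and further genes where stated.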

Additional observations from a re-analysis of the deposited data

Results flagged for a closer look

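In 21 genes the difference between RasGRP4-null and WT cells during LPS differed from that at 0 h in the test of that change (limma, all 10 arrays, adjusted p under 0.05), where each genotype has 1 array at 0 h. The change, difference during LPS minus difference at 0 h on the log2 scale, was positive in 15 of them. It was 2.51 for Snord118, 2.15 for Gm6981, 2.07 for Gm5124, 1.84 for Olfr577, 1.84 for Maoa, 1.78 for Gm19897, 1.68 for Acat2, 1.65 for Gm8550 and 1.65 for Gm14207. It was 1.61 for Gm17414, 1.57 for Tusc5, 1.57 for Ahsp, 1.53 for St8sia5, 1.44 for Klf11 and 1.35 for Pisd-ps1. The 6 negative changes were -1.80 for Coch, -1.78 for Apol11b, -1.69 for Mfge8, -1.52 for Pydc3, -1.47 for Alg12 and -1.38 for Tma16. At 0 h 10 of the 21 were above background in both genotypes. In RasGRP4-null cells 10 were below it (Olfr577, Tusc5, Gm17414, St8sia5, Maoa, Gm19897, Pydc3, Gm14207, Acat2 and Pisd-ps1), and in WT cells 3 were (Gm17414, Pydc3 and Tma16), so that these changes are of measured values and no fold is read from them. Olfr577 is itself one of the olfactory receptor genes used to set the background. Apart from Pydc3, the 21 genes differed during LPS by between -0.27 and 0.41.

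A signal also appeared in 15 probe sets outside the comparison by gene, 8 with several gene symbols and 7 with none, called in the limma fit of all probe sets. Among those with no symbol the log2 difference was 3.29 for 17549150, 3.02 for 17549062, 2.77 for 17467513, 1.34 for 17284568, 0.90 for 17467456, -0.79 for 17442940 and -1.50 for 17308165. Probe set 17549150 read 288, 306, 522 and 634 in RasGRP4-null cells and 32.1, 27.3, 29.1 and 23.8 in WT cells. Besides the heavy chain sets described above (Ighg1 -1.53, Igha 0.97, Ighg2b 0.96 and Ighg2c 0.87), the sets with several symbols were Mid1 (1.27), Tcrg-C1 with Tcrg-V4 (0.65), Snhg1 with Snord22 (-0.74) and Rpl29 with pseudogenes (-1.44). Among the called genes of the comparison by gene, no array stood apart from the other 3 of its genotype in the 48 groups of 4 tested. Genes not called, such as Mela, were not checked in this way.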

How the results depend on the processing

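All 24 called genes kept their direction under every alternative in which they were fitted. Leaving out a time point or the pairing, or changing only the variance prior or the test, could not have turned a sign. Against 24, the number of called genes was 14 with a pseudocount of 1, 47 with a robust prior, 129 at a threshold of 0.1 and 2 by source-name times. It was 0 by the paired t-test after adjustment (808 at an unadjusted p under 0.05). Without the replicate block, that is without the pairing by time point, it was 1. Leaving out a time point gave 1 to 39. It was 16 to 28 otherwise, and each array centred gave 16 higher and 7 lower against 20 and 4. The slope with hours gave 0 except when 1 time point was left out (24 to 600). Against 0 h, where 21 genes were called, a pseudocount of 1 gave 32, one of 64 gave 7, a filter at 100 gave 4, no filter 53 and a filter on the mean 12. Values of genes not called that turned sign were, by source-name times, -0.091 for Il1b, 0.048 for Rasgrp1, 0.24 for Ebi3 and 0.057 for Tnfsf15. On leaving out 1 time point the ranges were -0.036 to 0.66 for Mcpt1, turning without 12 h, -0.54 to 0.057 for Ebi3, turning without 36 h, and -0.63 to 0.054 for Tnfsf15, turning without 36 h or 48 h. The cause was not tested. Signal over background limits 6 of the 24 called genes, which were not above background on all 8 arrays.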

Other observations

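Other gene lists gave few differences between RasGRP4-null and WT cells during LPS. None of the 10 MHC class I and antigen-loading genes, 16 respiratory chain genes or 16 ribosome biogenesis genes tested was called or had an unadjusted p under 0.05 in limma, with medians of 0.01, -0.04 and -0.03. NF-kB subunits and their feedback inhibitors had medians of 0.41, 0.26, -0.28 and -0.17 at 12, 24, 36 and 48 h, and genes of hypoxia and stress 0.49, 0.33, -0.14 and -0.16. In both lists the median was positive at 12 and 24 h and negative at 36 and 48 h. Of 16 cholesterol synthesis genes 14 were positive, with a median of 0.10 and none called.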
